A study of Bos taurus with 34 samples.

Results

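The comparison set the lining of the ampulla, the wide part of the oviduct in which bovine eggs are fertilised, against that of the upper uterine horn on the side of ovulation. An early embryo crosses from the oviduct to the tip of the horn, and the stated aim of the series was to find candidate embryokines, maternal signals that act on the embryo. Libraries were chosen by their labels, as every ipsilateral ampulla (5) and every ipsilateral upper horn (4) among 34 libraries of 7 groups. All came from 5 adult nulliparous Holstein heifers with no stated genetic change, whose cycles had been synchronised with a progesterone-insert protocol and which were sampled on day 2 after ovulation. Heifers 10872, 10882, 11033 and 11070 gave both sites, and the ampulla of heifer 11110 stood without an upper horn. Ampulla values below follow the order 10872, 10882, 11033, 11070 and 11110, and upper horn values the order 10872, 10882, 11033 and 11070.

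The oviduct lining is a folded epithelium of ciliated cells, which move fluid and the embryo, and secretory cells, which release the fluid in which sperm and embryo are bathed. The endometrium of the horn is a luminal and glandular epithelium on a thick stroma with vessels, and its glands feed the embryo before it attaches. Both arise from the Müllerian duct, along which HOX genes mark the position of each segment. Soon after ovulation progesterone is still low and rising. Checked against their labels, the ampulla libraries held transcripts of motile cilia and oviduct secretory cells, though few counts on the feature used for the oviduct glycoprotein OVGP1. The upper horn libraries held posterior HOX and endometrial stroma transcripts. Values for both are given below.

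Counts per library ran from 12438895 to 30412782 in these 9 libraries. They are given as CPM, counts scaled to a common library size with edgeR's TMM factors, and as mean ± SD over 5 ampulla and 4 upper horn libraries. The ampulla of heifer 11110 enters the means but not the fit. Values given below as without the heifer block come from a fit that also adds this ampulla. Which of these changes moved a value was not tested. A log2 fold change (± SE) is ampulla minus upper horn, and a transcript was called at a Benjamini-Hochberg adjusted p under 0.05 in edgeR's quasi-likelihood F test of the 4 heifer pairs. Reads had been counted per transcript without regard to length, so levels of different genes are not set against each other. On the second principal component (8.97% of the variance) the ampulla libraries ran from -78.7 (heifer 11070) to 57.9 (heifer 11110), and the ampulla of heifer 11070 had 24241 features with a count, against 19883 to 21721 in the other ampulla libraries. Each paired heifer gave 1 library a site, so p-values measure how the difference between sites spread over these 4 animals. In the upper horn of heifer 10882, 6.48% of counts fell on an 18S ribosomal transcript, against 0.634% to 2.56% in the other 8 libraries.

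Ampulla and upper horn differed widely. Of 12912 transcripts tested, 5955 were called (46.1%), 2959 of them higher in the ampulla (22.9%) and 2996 lower (23.2%). These shares are the ones to set beside the counts of list members below. At least 2-fold were 2220 of the higher and 2433 of the lower calls, and at least 16-fold were 374 and 734. The median over all transcripts was -0.08. Of the calls, 2922 higher and 2964 lower ones had the same direction in 4 of 4 pairs, as did every called gene named below. A paired test of 4 heifers favours transcripts with such agreement, so it adds no separate support. Values of the 5 ampulla and 4 upper horn libraries did not overlap for 4496 transcripts (34.8%). The first principal component, with 72.8% of the variance, put the ampulla libraries between -117 and -91.6 and the upper horn libraries between 118 and 144.

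**Figure D1:**
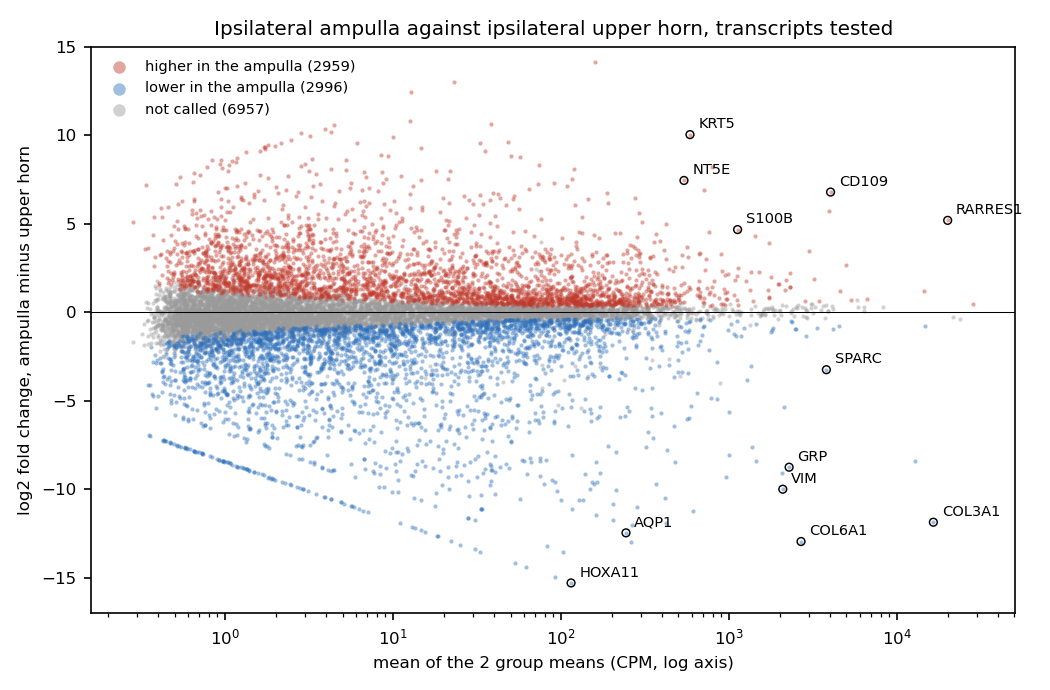
Log2 fold change (ampulla minus upper horn, vertical axis) of each of 12912 transcripts tested, against the mean of both groups' mean CPM (log axis). Red points are calls above the upper horn, blue points calls below it, grey points were not called, and the fitted values of transcripts at 0 counts in the ampulla line up along slanted rows, where they depend on the prior count. Calls lie on both sides at every level, and several collagen genes and RARRES1 combine a large change with a high level.

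Some of the transcripts that took up a large part of a library differed widely between the sites, while others were abundant in both. RARRES1, a membrane gene that responds to retinoic acid, held 3.41% to 4.31% of all counts in the ampulla libraries and 0.0864% to 0.150% in the upper horn libraries. Its level was 46068, 36018, 44502, 25862 and 42651 CPM in the ampulla, against 1393, 1044, 1012 and 705 CPM in the upper horn (log2 fold change 5.21 ± 0.18, adjusted p 8.95e-07). Every ampulla library stood far above every upper horn library. CD109, a surface glycoprotein that binds TGF-beta, had 8334, 10039, 8801, 6642 and 6009 CPM in the ampulla, against 80.5, 93.9, 60.9 and 68.4 CPM in the upper horn (6.8 ± 0.19, adjusted p 4.45e-07). AZGP1, a secreted zinc-binding glycoprotein, averaged 7730.5 ± 2820.3 CPM in the ampulla and 156 ± 69.6 CPM in the upper horn (5.71 ± 0.42). LY6E, a GPI-anchored surface protein, rose by 3.46 ± 0.30, SPINT2, an inhibitor of serine proteases, by 1.88 ± 0.21, the tubulin gene TUBA1D by 3.93 ± 0.33 and TPT1, a translationally controlled protein, by 1.22 ± 0.17. CD109, AZGP1, LY6E, SPINT2 and TUBA1D were picked by their difference in mean CPM after the values were seen, as were SPARC, GRP, VIM, MMP14 and COL4A1 below.

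Transcripts of matrix proteins were among those with the largest CPM difference towards the upper horn. COL3A1, the chain of type III collagen, had 13.6, 0.10, 13, 18.9 and 9.38 CPM in the ampulla, against 36016, 37929, 21802 and 35864 CPM in the upper horn. The log2 fold change was -11.85 ± 1.66, adjusted p 0.00499, and it was -10.96 without heifer 10882, whose ampulla held the least. COL1A2, of type I collagen, had 84.2, 53.1, 80.5, 72.9 and 37.4 CPM in the ampulla, against 27726, 37482, 14364 and 22051 CPM in the upper horn (-8.38 ± 0.40, adjusted p 3.19e-06). SPARC, a collagen-binding glycoprotein, averaged 708 ± 136 CPM in the ampulla and 6885 ± 686 CPM in the upper horn (-3.23 ± 0.16).

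The 10 tested members of the list of fibrillar and network collagens all fell in the ampulla, with a median log2 fold change of -8.31, or -7.94 with transcripts at 0 counts set at their bound. Where more members were tested, 1 was called higher and 12 lower of 13 with DESeq2, and 1 higher and 12 lower of 15 with no filter on low counts. The summed level of the list was 154 to 252 CPM in the ampulla libraries and 46464 to 85662 CPM in the upper horn libraries. Sums over a list, here and below, take all its members with a feature, tested or not. COL6A1, of the microfibrils of type VI collagen, stood at 0.69, 0.702, 0.612, 0.668 and 0.649 CPM in the ampulla and 5981, 5433, 3748 and 6290.0 CPM in the upper horn (-12.94 ± 0.23, adjusted p 1.68e-07). COL4A1, of the basement membrane, averaged 12.2 ± 7.63 CPM in the ampulla and 2886 ± 711 CPM in the upper horn (-8.37 ± 0.40). Of 21 matrix proteases, crosslinking enzymes and inhibitors tested, 5 rose and 13 fell, with a median of -1.54. MMP2, a gelatinase, averaged 6.16 ± 2.52 CPM in the ampulla and 4099 ± 1342 CPM in the upper horn (-9.1 ± 0.28), and the membrane-type protease MMP14 fell by 5.34 ± 0.23 on the log2 scale. LOXL2, which crosslinks collagen, fell by 7.87 ± 0.38 and MMP11, a stromal protease, by 5.85 ± 0.25. Among the 5 that rose was TIMP2, an inhibitor of metalloproteinases, with 5367, 4625, 5179, 1708 and 1851 CPM in the ampulla, against 789, 1091, 697 and 763 CPM in the upper horn (2.23 ± 0.29, adjusted p 0.000409). The ampulla libraries differed among themselves here, with heifers 11070 and 11110 well under the other 3 but still above every upper horn.

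Many markers of the cell types under the epithelium were at or near 0 in the ampulla libraries. Of 19 stromal fibroblast markers tested, 18 fell and 1 rose (median -8.76, or -8.38 at the bound), and 8 list members with a feature had 0 counts in all 5 ampulla libraries. Summed over the list, levels were 1891 to 2797 CPM in the ampulla libraries and 54709 to 96469 CPM in the upper horn libraries. VIM, the intermediate filament of mesenchymal cells, had 4.24, 3.96, 2.55, 6.01 and 6.01 CPM in the ampulla, against 5285, 4063, 4092 and 3250.2 CPM in the upper horn (-9.98 ± 0.36, adjusted p 9.16e-07). DCN and DPT, the matrix proteins decorin and dermatopontin, gave no count in the ampulla libraries, with 45.4, 41.5, 30.4 and 84 CPM and 47.8, 64.4, 55.3 and 96.4 CPM in the upper horn, which makes them at least 1579.7-fold and at least 2048-fold lower in the ampulla. A fold against 0 counts is a bound set at 3 counts over the group, and bounds and counting intervals cover counting error only. The exception was NT5E, the ecto-enzyme CD73 that makes adenosine, named after its value was seen, with 1293, 872, 1439.9, 889 and 865 CPM in the ampulla, against 6.11, 5.89, 6.32 and 6.69 CPM in the upper horn (7.46 ± 0.22, adjusted p 4.48e-07). In bulk tissue, fewer cells of a type and less RNA per cell cannot be told apart, and the part of tissue content in any other fold change below was not tested.

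Of 11 endothelial genes tested, 10 fell and 0 rose (median -8.11). Summed over the list, levels were 17.7 to 30.6 CPM in the ampulla libraries and 1191 to 1524 CPM in the upper horn libraries. PLVAP, of the diaphragms of fenestrated vessels, had 0.053, 0.15, 0.204, 0.0835 and 0 CPM in the ampulla, against 212, 175, 279 and 135 CPM in the upper horn (-10.61 ± 0.25, adjusted p 2.66e-07). ROBO4, an endothelial guidance receptor, averaged 0.238 ± 0.112 CPM in the ampulla and 183 ± 20.9 CPM in the upper horn (-9.59 ± 0.27). CLDN5, a tight-junction claudin known from vessels, gave no count in the ampulla, with 61.7 ± 18.4 CPM in the upper horn (at least 2148-fold lower in the ampulla), and the adhesion gene ESAM averaged 0.0719 ± 0.104 CPM in the ampulla and 75.7 ± 11.1 CPM in the upper horn (-9.73 ± 0.59, adjusted p 1.02e-05, and -10.77 with DESeq2 and -11.79 without heifer 11070).

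Smooth muscle and pericyte genes were lower too, in 11 of 13 tested cases with 0 higher (median -5.94). RGS5, a pericyte regulator of G protein signals, averaged 0.249 ± 0.218 CPM in the ampulla and 269 ± 71.7 CPM in the upper horn (-10.61 ± 0.39), and KCNJ8, a potassium channel of pericytes, gave no count in the ampulla, with 44.3 ± 9.53 CPM in the upper horn (at least 1487-fold lower in the ampulla). The contractile gene ACTG2 had 0, 0.10, 0.153, 0.292 and 0.177 CPM in the ampulla, against 20.4, 522, 1085 and 8.33 CPM in the upper horn. Its log2 fold change was -10.82 ± 1.51, adjusted p 0.00442, and -10.14 without heifer 10882, -9.31 without heifer 11033 and -12.58 without heifer 11070. Its upper horn values spread widely, with heifers 10882 and 11033 high and 10872 and 11070 low. The Notch receptor NOTCH3, which epithelial cells may also carry, was not called (-0.29 ± 0.13, adjusted p 0.117).

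Among leukocyte markers, 11 of 16 tested fell and 1 rose (median -2.36). TPSB2, a mast cell tryptase, averaged 0.0369 ± 0.0363 CPM in the ampulla and 26.8 ± 9.12 CPM in the upper horn (-8.97 ± 0.41), and ITGAM, an integrin of myeloid cells, 0.56 ± 0.302 CPM in the ampulla and 16.7 ± 5.65 CPM in the upper horn (-4.8 ± 0.44). The joining chain gene JCHAIN of plasma cells had 38.2, 36.1, 10.1, 13.1 and 29.8 CPM in the ampulla, against 13.8, 1265, 6.74 and 69.4 CPM in the upper horn, and was not called (adjusted p 0.555). The upper horn of heifer 10882 was far above every other library. The globin gene HBQ1, of red cells, had 24.4 ± 4.78 CPM in the ampulla and 12.9 ± 2.76 CPM in the upper horn (0.82 ± 0.21, adjusted p 0.0128, and 0.0637 without heifer 10882). Of the red cell list only 2 members were tested, and 2 rose, while with DESeq2 2 rose and 1 fell of 3. Summed over the list, levels were only 21.3 to 37.7 CPM in the ampulla libraries and 9.92 to 15.7 CPM in the upper horn libraries.

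**Figure D2:**
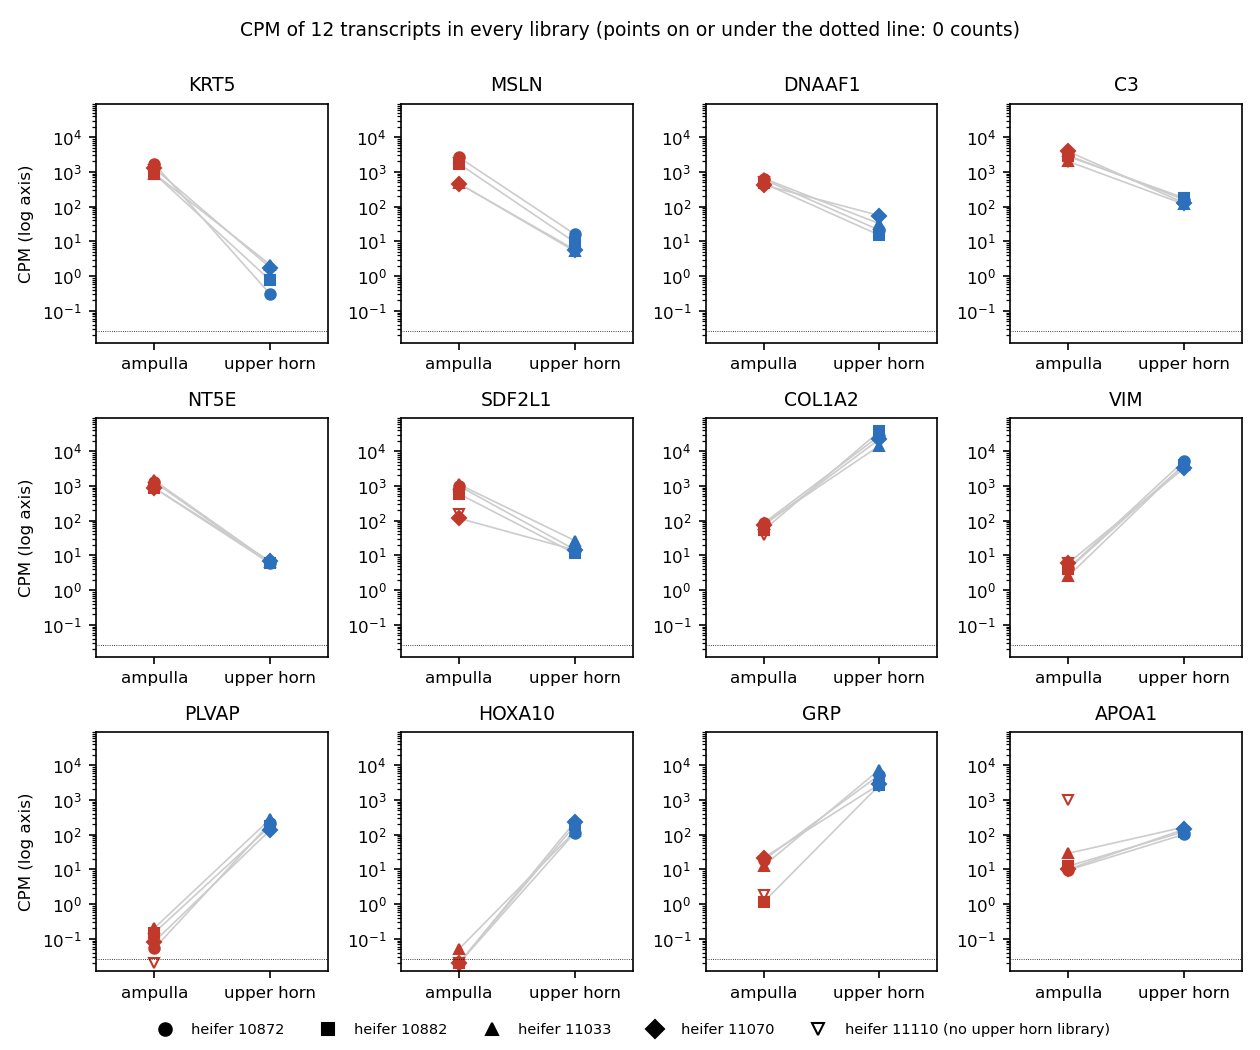
CPM (log axis) of 12 transcripts in each of the 5 ampulla libraries (left, red) and 4 upper horn libraries (right, blue), with grey lines between libraries of the same heifer and an open symbol for heifer 11110, which had no upper horn library. Points under the dotted line had 0 counts. The groups are separate for 11 of the 12, and APOA1 is the exception through the ampulla of heifer 11110. The 12 were picked for display, while 34.8% of all transcripts tested did not overlap.

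The ampulla libraries carried the ciliated cell programme at a high level. Of 24 genes of the ciliary axoneme and motility tested, 22 rose and 0 fell, against 22.9% higher and 23.2% lower over all transcripts, with a median of 2.85. Summed over the list, levels were 7148 to 9251 CPM in the ampulla libraries and 613 to 1803 CPM in the upper horn libraries. The upper horn thus also held ciliary transcripts, most in heifer 11070. ROPN1L, of the radial spoke, had 633, 639.6, 764, 436 and 1053 CPM in the ampulla, against 23.1, 12.4, 34.1 and 65.1 CPM in the upper horn (4.44 ± 0.49, adjusted p 0.000434). DNAAF1, which assembles dynein arms, had 607, 473, 651, 422 and 529 CPM in the ampulla, against 21.1, 15.1, 32.3 and 55.3 CPM in the upper horn (4.28 ± 0.35, adjusted p 5.2e-05). TEKT1, a filament of the axoneme, averaged 450.0 ± 66.6 CPM in the ampulla and 40.6 ± 20.6 CPM in the upper horn (3.54 ± 0.32).

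Of genes that start the making of many cilia in a cell, 5 of 9 tested were called higher and 0 lower (median 3.24). The number higher was 3 without heifer 10872, without heifer 11033 or with scaling by library totals, and 1 of 10 (median 2.08) with no filter on low counts. FOXJ1, the forkhead factor of motile cilia, averaged 332 ± 213 CPM in the ampulla and 42.9 ± 27.1 CPM in the upper horn (3.24 ± 0.49, adjusted p 0.00188). MCIDAS, which commits cells to multiple cilia, had 42.4, 40.2, 56.9, 22.4 and 10.9 CPM in the ampulla, against 1.62, 1.23, 4.75 and 11.5 CPM in the upper horn (3.6 ± 0.72, adjusted p 0.00658, and 2.83 without the heifer block and 4.38 without heifer 11070). CDC20B, host of a microRNA of the same programme, had 160.4, 175, 169, 57.3 and 9.85 CPM in the ampulla, against 3.36, 2.16, 6.95 and 20.9 CPM in the upper horn (4.59 ± 1.02, adjusted p 0.0199, and 3.74 without the heifer block, 3.98 without heifer 10882 and 5.46 without heifer 11070). In both, the groups overlapped through the low ampulla of heifer 11110 and the high upper horn of heifer 11070. CCNO, a cyclin needed for centriole amplification, averaged 135 ± 69.6 CPM in the ampulla and 17.4 ± 19.3 CPM in the upper horn and was not called (adjusted p 0.0574, but 0.0007 without heifer 11070, 0.0238 without the heifer block, 0.00471 in a fit of all 34 libraries and 0.000203 with DESeq2). The call of CDC20B (adjusted p 0.0199) was lost without heifer 10872 or 11033 (adjusted p 0.0726 and 0.103) and with scaling by library totals (0.0591). With no filter on low counts, it was lost for CDC20B, MCIDAS and FOXJ1 (adjusted p 0.135, 0.143 and 0.075).

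Secretory cell genes of the oviduct rose in 5 of 6 tested cases, 0 fell, and the median was 6.5. MSLN, the surface glycoprotein mesothelin, had 2630.0, 1715, 468, 457 and 1825 CPM in the ampulla, against 16.1, 9.49, 5.22 and 5.77 CPM in the upper horn (6.93 ± 0.28, adjusted p 1.4e-06). Within the ampulla, heifers 11033 and 11070 held far less than the other 3. KRT23, an epithelial keratin, averaged 83.4 ± 44.7 CPM in the ampulla and 0.901 ± 0.60 CPM in the upper horn (6.69 ± 0.31). CRISP3, a cysteine-rich secretory protein, had 47.1, 41.3, 4.49, 41.7 and 12.7 CPM in the ampulla, against 0, 0, 0.104 and 0.131 CPM in the upper horn (9.3 ± 0.78, adjusted p 5.02e-05, and 8.4 without heifer 10872 and 10.32 without heifer 11033). OVGP1, the oviduct glycoprotein that coats egg and embryo, had 9.13, 6.72, 4.18, 12.8 and 4.3 CPM in the ampulla and 0.0305, 0.127, 0 and 0.328 CPM in the upper horn (6.3 ± 0.55, adjusted p 5.37e-05, and 6.89 without heifer 11070). Its ampulla and upper horn values did not overlap. These counts are of the feature used for OVGP1 and do not rank it against other genes.

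Keratins and other genes of simple epithelium rose in 10 of 13 tested cases and fell in 1 (median 2.25). KRT5, a keratin of basal cells, had 1696, 886, 897, 1267 and 1099 CPM in the ampulla, against 0.305, 0.763, 2.14 and 1.77 CPM in the upper horn. Its log2 fold change was 10.05 ± 0.69, adjusted p 5.62e-05, and 9.4 without heifer 10872. KRT18, of simple epithelium, averaged 1295 ± 88.9 CPM in the ampulla and 168 ± 39.9 CPM in the upper horn (3.0 ± 0.17). The cadherin CDH1, present in all epithelium, averaged 188 ± 77.4 CPM in the ampulla and 276 ± 59.2 CPM in the upper horn and was not called (-0.35 ± 0.22, adjusted p 0.23, and 0.0474 without heifer 10882).

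Cell junction genes split, with 6 higher and 6 lower of 14 tested (median -0.56, and 0.54 with DESeq2's test). Connexins moved in both directions. GJB7 had 57.7, 68.6, 91.7, 75.3 and 56.5 CPM in the ampulla, against 0.0305, 0.127, 0.209 and 0.197 CPM in the upper horn (9.11 ± 0.32, adjusted p 8.95e-07, and 9.74 in a fit of all 34 libraries). GJB1 averaged 55.9 ± 15.6 CPM in the ampulla and 2.61 ± 1.25 CPM in the upper horn (4.55 ± 0.53, adjusted p 0.000385, and 3.94 without heifer 10872). GJB2 was lower, with 0.422 ± 0.184 CPM in the ampulla and 4.44 ± 2.14 CPM in the upper horn (-3.35 ± 0.34), and so was GJA1, with 137 ± 64.5 CPM in the ampulla and 660.5 ± 352 CPM in the upper horn (-2.14 ± 0.29, adjusted p 0.000609). DSP, the desmosome plaque protein, had 707, 695, 498, 609 and 88.8 CPM in the ampulla, against 67.8, 55, 72.9 and 56.2 CPM in the upper horn (3.32 ± 0.19, adjusted p 5.77e-06). The ampulla of heifer 11110 lay far below its group in DSP and only just above the upper horns.

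Genes of uterine glands and luminal epithelium went both ways, with 3 of 13 tested higher and 7 lower (median -0.92). MSX1, a homeobox gene of uterine epithelium, had 12.4, 8.57, 23.1, 7.1 and 11.2 CPM in the ampulla, against 591, 535, 1066 and 536 CPM in the upper horn (-5.82 ± 0.19, adjusted p 6.3e-07). WNT7A, a luminal signal, averaged 0.591 ± 0.545 CPM in the ampulla and 29.9 ± 17.7 CPM in the upper horn (-5.43 ± 0.40), and IHH, the hedgehog signal by which epithelium acts on stroma, 5.86 ± 2.08 CPM in the ampulla and 128 ± 39.8 CPM in the upper horn (-4.64 ± 0.23). FOXA1, a pioneer factor of epithelia, ran the other way with 1.86, 5.56, 4.89, 2.25 and 1.0 CPM in the ampulla, against 0, 0, 0 and 0.131 CPM in the upper horn. SOX17, a factor of both tissues, averaged 409 ± 101 CPM in the ampulla and 334 ± 56.9 CPM in the upper horn and was not called (0.38 ± 0.17, adjusted p 0.105).

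Fold changes were ranked among called transcripts with an official symbol, at least 10 CPM in the higher group and the same direction in 4 of 4 pairs. The highest fitted ones were those of the channels P2RX2 and AQP9, LRCOL1, KRT5, SPRY4, TMEM151A, CRISP3 and GJB7. P2RX2, a channel opened by ATP, had 44.5, 28, 4.89, 35.9 and 13 CPM in the ampulla and a single count in the 4 upper horns, a ratio of 2352 (counting interval 422 to 92941). AQP9, which passes water and small solutes, had 8.81, 26, 20.6, 14.6 and 29.7 CPM in the ampulla, a ratio of 1773 (counting interval 318 to 70066). SPRY4, an inhibitor of receptor tyrosine kinase signals, had 9.55, 14.8, 9.99, 20.4 and 5.96 CPM, a ratio of 1151 (counting interval 206 to 45496). LRCOL1 averaged 76.3 ± 23.3 CPM in the ampulla and 0.0365 ± 0.0432 CPM in the upper horn (10.66 ± 0.38, adjusted p 8.95e-07, and 11.65 in a fit of all 34 libraries). TMEM151A, a membrane gene, averaged 65.3 ± 23.6 CPM in the ampulla and 0.0808 ± 0.0558 CPM in the upper horn (9.57 ± 0.35, adjusted p 9.16e-07, and 10.30 in a fit of all 34 libraries). The lowest fitted values belonged to HOXA11, HAND2, QRFPR, MEG3, DPT, CLDN5, HOXA10 and DCN. With 0 or 1 count in the ampulla these depend on the prior count. The bounds and counting intervals do not show that any of these genes fell further than COL6A1. QRFPR, a neuropeptide receptor, gave no count in the ampulla, with 122, 210.5, 111 and 52.4 CPM in the upper horn (at least 4332-fold lower in the ampulla). MEG3, a maternally expressed noncoding RNA, had a single count in the ampulla and 119, 283, 57.2 and 361 CPM in the upper horn, a ratio of upper horn to ampulla of 18814 (counting interval 3376 to 743162).

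HOX genes mark position along the tract. All 9 posterior HOX genes tested fell, with a median of -8.44. Summed over the list, levels were 0.867 to 1.59 CPM in the ampulla libraries and 624 to 947 CPM in the upper horn libraries. HOXA11 gave no count in the ampulla, with 236, 247, 194 and 240.5 CPM in the upper horn (at least 7639-fold lower in the ampulla). HOXA10 had 0, 0, 0.051, 0 and 0 CPM in the ampulla, against 114, 184, 124 and 233 CPM in the upper horn. HOXD10 and HOXD11 had a single count each in the ampulla and 55.7 ± 18.6 and 35.6 ± 9.78 CPM in the upper horn. Anterior HOX genes were divided, with 4 of 16 higher and 6 lower (median -0.14, and 0.16 without heifer 10882, with 3 lower without heifer 11033). All transcripts together had 22.9% higher and 23.2% lower. HOXC5 averaged 15 ± 4.06 CPM in the ampulla and 0.629 ± 0.313 CPM in the upper horn (4.56 ± 0.30, adjusted p 1.18e-05). HOXB6, by contrast, had 102, 89.3, 85.9, 59.9 and 81.8 CPM in the ampulla, against 908, 574, 599 and 661 CPM in the upper horn (-3.02 ± 0.16, adjusted p 4.93e-06), and HOXA7 averaged 1.11 ± 0.906 CPM in the ampulla and 5.3 ± 1.62 CPM in the upper horn (-2.86 ± 0.33, adjusted p 0.000204, and -2.08 in a fit of all 34 libraries and -2.27 without the heifer block).

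Regulators of the Müllerian duct and its mesenchyme fell in 11 of 16 tested cases and rose in 2 (median -3.31). HAND2, the stromal factor through which progesterone restrains growth of the epithelium in mouse uterus, gave no count in the ampulla, with 183, 221, 179 and 154 CPM in the upper horn (at least 6194-fold lower in the ampulla). TCF21, a mesenchymal factor, had a single count in the ampulla and 19.8 ± 5.76 CPM in the upper horn. FOXF2, also mesenchymal, averaged 0.405 ± 0.30 CPM in the ampulla and 36.5 ± 6.89 CPM in the upper horn (-6.65 ± 0.57). LEF1, which carries WNT signals to DNA, averaged 0.124 ± 0.12 CPM in the ampulla and 7.67 ± 1.01 CPM in the upper horn (-5.7 ± 0.53).

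**Figure D3:**
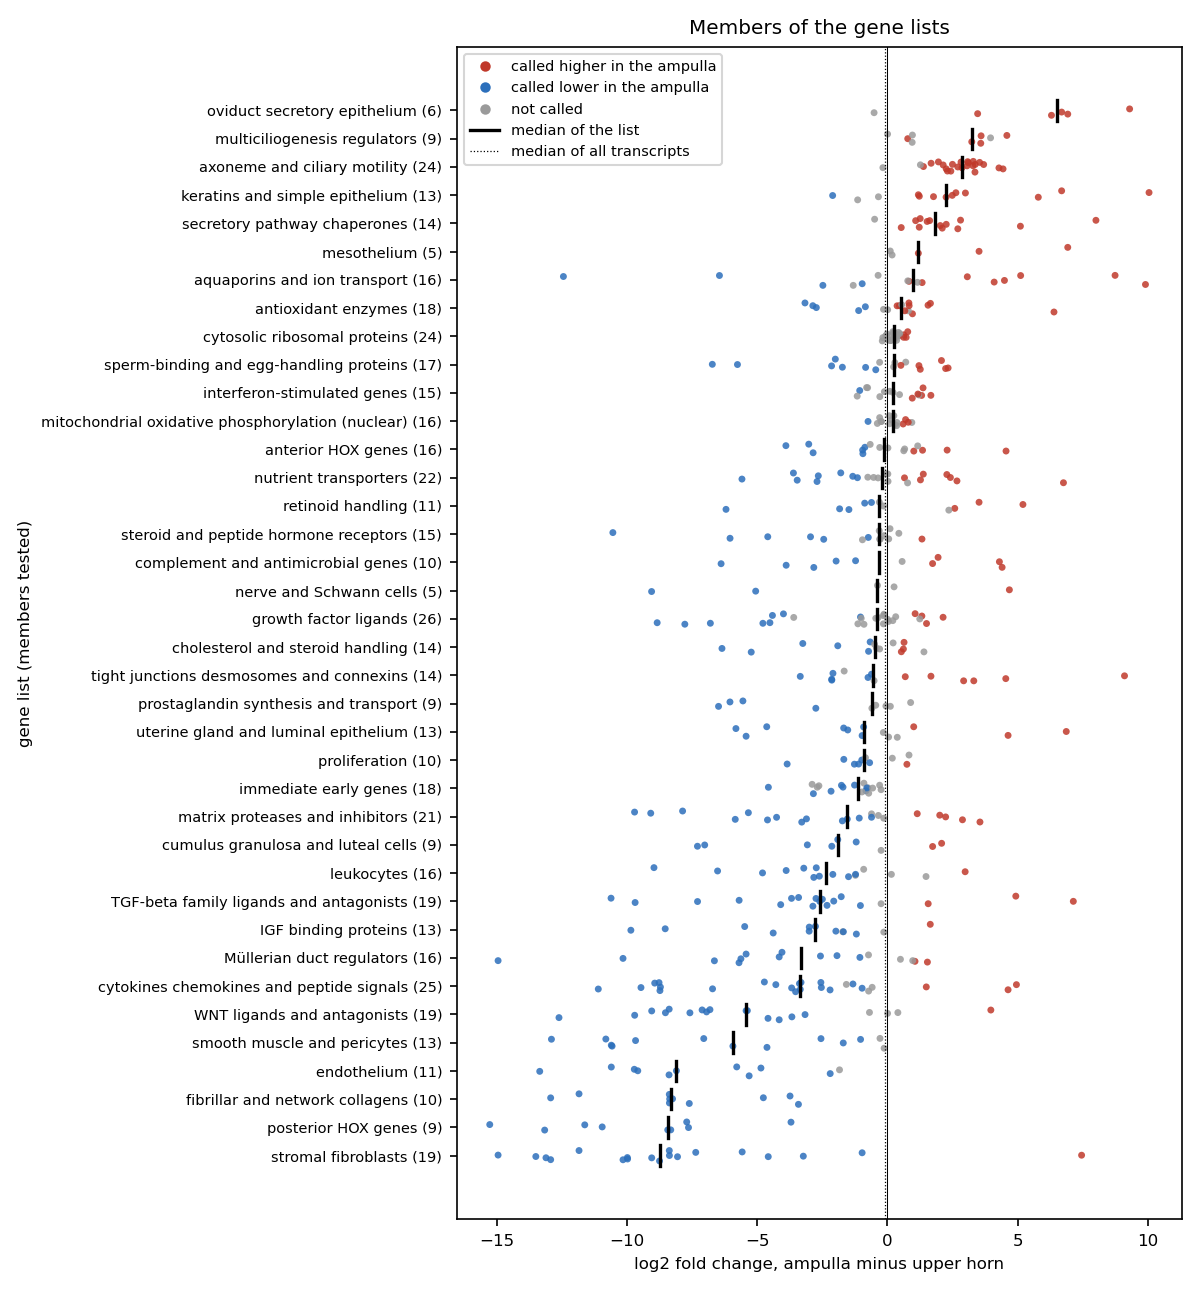
Log2 fold change (ampulla minus upper horn, horizontal axis) of each tested member of the gene lists with at least 5 tested members, one row a list, ordered by the list's median (black bar); the dotted line is the median of all transcripts, -0.08. Red points are calls above the upper horn, blue points calls below it, and grey points were not called. Cilia, secretory, keratin and chaperone lists lie to the right, and stromal, collagen, endothelial and posterior HOX lists to the left.

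WNT genes, which pattern the tract and drive gland formation, fell in 15 of 19 tested cases and rose in 1 (median -5.43). WNT2, a stromal ligand, had 0.318, 0, 0.102, 0.292 and 0.059 CPM in the ampulla, against 159, 214, 110.1 and 149 CPM in the upper horn (-9.71 ± 0.50, adjusted p 5.17e-06). RSPO3, which amplifies WNT signals, gave no count in the ampulla, with 10.5, 62.5, 70.8 and 4.72 CPM in the upper horn (at least 1184-fold lower in the ampulla). SFRP2, a secreted antagonist, had 1.22, 0.15, 0.204, 0.292 and 0.354 CPM in the ampulla, against 73.8, 483, 698 and 103 CPM in the upper horn (-9.06 ± 1.28, adjusted p 0.00488, and -9.65 in a fit of all 34 libraries, -10.62 without heifer 10872, -8.33 without heifer 10882 and -8.21 without heifer 11033). In the upper horn, RSPO3 and SFRP2 were both high in heifers 10882 and 11033 and low in 10872 and 11070. WNT9A averaged 28 ± 3.3 CPM in the ampulla and 22.1 ± 4.78 CPM in the upper horn and was not called (0.40 ± 0.22, adjusted p 0.167).

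Ligands and antagonists of the TGF-beta family fell in 15 of 19 tested cases, rose in 3 and had a median of -2.6. GDF7, a BMP-type ligand, had a single count in the ampulla and 42.5, 18.6, 13.1 and 42.3 CPM in the upper horn, a ratio of upper horn to ampulla of 2985 (counting interval 535 to 117958). NOG, the BMP antagonist noggin, gave no count in the ampulla, with 4.88 ± 1.83 CPM in the upper horn (at least 176-fold lower in the ampulla). GDF3 was higher, with 6.9, 7.07, 5.46, 6.81 and 7.13 CPM in the ampulla and 0.0916, 0, 0.0522 and 0 CPM in the upper horn (7.14 ± 0.59, adjusted p 3.96e-05, and 8.08 without heifer 10872). NODAL, like GDF3 a ligand known from the early embryo and named after its value was seen, had 1.54, 1.45, 1.94, 2.17 and 0.884 CPM in the ampulla and 0.0305, 0.17, 0 and 0 CPM in the upper horn (4.93 ± 0.78, adjusted p 0.00115, and 6.52 without heifer 10882). The inhibin subunit INHA averaged 3.12 ± 0.639 CPM in the ampulla and 3.92 ± 1.39 CPM in the upper horn and was not called (-0.24 ± 0.27, adjusted p 0.485).

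Growth factor ligands were called about as often as all transcripts (46.1%), with 4 of 26 higher (2 without the heifer block), 8 lower and 14 not called (median -0.40). CCN2, a matricellular signal, had 1.17, 1.35, 1.83, 30.8 and 1.83 CPM in the ampulla, against 486, 1015, 368 and 1502 CPM in the upper horn. Its log2 fold change of -7.79 ± 0.86 became -7.14 without heifer 10882 and -8.64 without heifer 11070, and it was -6.76 without the heifer block and -6.87 in a fit of all 34 libraries. CCN1, its relative, had 13.2, 14.9, 24.2, 394 and 32 CPM in the ampulla, against 265, 1642, 83.7 and 1694 CPM in the upper horn, and was not called (adjusted p 0.0582, but 0.00915 without heifer 10882, 0.000881 in a fit of all 34 libraries and 0.000723 with DESeq2). The ampulla of heifer 11070 was the high one in both genes. The vessel growth factor ANGPT2 averaged 1.97 ± 1.14 CPM in the ampulla and 63.3 ± 10.7 CPM in the upper horn (-4.79 ± 0.26), and ANGPT1 0.0308 ± 0.0288 CPM in the ampulla and 3.76 ± 3.36 CPM in the upper horn. GAS6, a ligand of TAM receptors, averaged 525 ± 75.6 CPM in the ampulla and 437 ± 81.9 CPM in the upper horn and was not called (0.32 ± 0.15, adjusted p 0.118).

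Cytokines, chemokines and peptide signals fell in 19 of 25 tested cases and rose in 3 (median -3.35). GRP, gastrin-releasing peptide, a product of uterine glands in ruminants, had 18.8, 1.15, 12.6, 21.6 and 1.89 CPM in the ampulla, against 5229.9, 2666, 7471 and 2812 CPM in the upper horn. Its log2 fold change was -8.74 ± 0.88, adjusted p 0.000641, with -8.08 without heifer 10882 and -9.38 without heifer 11070. CCL14 and CXCL12, chemokines for leukocytes, had 2 counts each in the ampulla and 67.9 ± 43.6 and 21.4 ± 13.2 CPM in the upper horn, ratios of upper horn to ampulla of 3504 (counting interval 969.5 to 28938) and 1067 (counting interval 295 to 8815). PENK, the enkephalin precursor, had 0, 0.15, 0.306, 0.292 and 0.295 CPM in the ampulla, against 12.3, 33.6, 65.2 and 282 CPM in the upper horn (-8.78 ± 0.41, adjusted p 2.77e-06, and -7.96 without heifer 11070). On the other side were NTS and MIF, named after their values were seen. NTS, the peptide neurotensin, had 67.5, 65.1, 83.8, 58 and 17.3 CPM in the ampulla, against 3.15, 2.25, 1.72 and 1.77 CPM in the upper horn (4.96 ± 0.24, adjusted p 3.01e-06). MIF, a cytokine found in most cells, averaged 551 ± 206 CPM in the ampulla and 169 ± 54.3 CPM in the upper horn (1.49 ± 0.18, adjusted p 0.000296).

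Binding proteins and proteases of the IGF system fell in 10 of 13 tested cases and rose in 1, PAPPA2 being the riser (median -2.77). IGFBP1, a product of ruminant luminal epithelium, had a single count in the ampulla and 32.2, 25.5, 11.9 and 0.591 CPM in the upper horn, where heifer 11070 lay far below the other 3. IGFBP4, which holds IGFs away from their receptor, averaged 28.7 ± 10.1 CPM in the ampulla and 579 ± 41 CPM in the upper horn (-4.39 ± 0.28, adjusted p 1.07e-05), and STC1, which blocks the proteases that free IGFs, 1.27 ± 0.788 CPM in the ampulla and 59.3 ± 8.41 CPM in the upper horn (-5.49 ± 0.37, adjusted p 1.39e-05). Hormone receptors fell in 6 of 15 tested cases and rose in 1, against 23.2% lower and 22.9% higher over all transcripts (median -0.32). OXTR, the oxytocin receptor, had 0, 0, 0.306, 0 and 0.059 CPM in the ampulla, against 165, 83.5, 157 and 51.6 CPM in the upper horn (-10.55 ± 0.56, adjusted p 5.43e-06, and -12.03 with DESeq2, -9.63 with counts summed per gene and -14.06 without heifer 11033). GHR, the growth hormone receptor, averaged 2.0 ± 0.737 CPM in the ampulla and 144 ± 54 CPM in the upper horn (-6.05 ± 0.30, adjusted p 3.41e-06) and PTGDR, a prostaglandin receptor, 0.327 ± 0.189 CPM in the ampulla and 6.71 ± 3.49 CPM in the upper horn (-4.6 ± 0.46, adjusted p 9.99e-05). IGF2R, which clears IGF2, averaged 197 ± 56.6 CPM in the ampulla and 244 ± 38.6 CPM in the upper horn and was not called (-0.14 ± 0.13, adjusted p 0.394).

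In prostaglandin synthesis and transport, 4 of 9 tested genes fell and 0 rose (median -0.60). PTGS2, the inducible cyclooxygenase, had 0.212, 0.501, 0.663, 2.67 and 0.177 CPM in the ampulla, against 20.6, 66.2, 10.8 and 91.1 CPM in the upper horn (-5.55 ± 0.49, adjusted p 6.14e-05). PTGES, the synthase of prostaglandin E2, averaged 0.503 ± 0.351 CPM in the ampulla and 38.1 ± 12 CPM in the upper horn (-6.49 ± 0.69, adjusted p 0.00026, and -7.19 without heifer 11070), and the transporter SLCO2A1 0.116 ± 0.067 CPM in the ampulla and 8.19 ± 2.34 CPM in the upper horn (-6.05 ± 0.45). HPGD, which breaks prostaglandins down, had 8.06, 6.17, 7.95, 7.72 and 27.2 CPM in the ampulla, against 53.5, 38.7, 44.7 and 68.4 CPM in the upper horn (-2.75 ± 0.18, adjusted p 1.22e-05, and -2.16 in a fit of all 34 libraries).

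Channels and transporters went both ways. Of 16 aquaporin and ion transport genes tested, 8 rose and 4 fell (median 0.99). AQP5, a water channel of secretory epithelia, had 2.23, 1.85, 2.55, 3.84 and 1.3 CPM in the ampulla and 0 counts in the upper horn (at least 74-fold higher in the ampulla). AQP2, a water channel known from the kidney, averaged 2.73 ± 0.896 CPM in the ampulla and 0.0731 ± 0.0541 CPM in the upper horn (5.12 ± 0.55). AQP1, a water channel of endothelium and other cells, had 0, 0, 0.102, 0.167 and 0 CPM in the ampulla, against 863, 338, 563 and 183 CPM in the upper horn, a log2 fold change of -12.45 ± 0.63, adjusted p 8.58e-06 that ranged from -13.85 without heifer 11070 to -11.73 without heifer 10872, and was -13.16 with DESeq2. CFTR, the chloride and bicarbonate channel, had 0.053, 0.351, 0.306, 0.459 and 0.884 CPM in the ampulla, against 40.9, 31.1, 30.6 and 13.1 CPM in the upper horn (-6.46 ± 0.57, adjusted p 6.13e-05, and -7.16 without heifer 11070). Of 22 nutrient transporters, 7 rose and 8 fell, against 22.9% and 23.2% of all transcripts (median -0.21). SLC5A1, which takes up glucose with sodium, had 75, 107, 98.4, 82.2 and 25.6 CPM in the ampulla, against 0.641, 0.551, 1.41 and 0.853 CPM in the upper horn (6.76 ± 0.28, adjusted p 1.5e-06). SLC2A3, a glucose carrier that works without sodium, had 0.955, 2.15, 2.7, 4.18 and 4.13 CPM in the ampulla, against 37.2, 375, 27.8 and 283 CPM in the upper horn (-5.59 ± 0.75, adjusted p 0.00209, and -4.9 without heifer 10882 and -6.31 without heifer 11033). Its call was lost with no filter on low counts (adjusted p 0.0531). SLC1A1, a glutamate carrier, fell by 3.61 ± 0.20 and SLC15A3, a lysosomal peptide carrier, by 3.47 ± 0.27 on the log2 scale.

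Chaperones of the secretory pathway rose in 13 of 14 tested cases and fell in 0 (median 1.82). Summed over the list, the ampulla libraries held 27181, 24699.9, 40037, 8296 and 8480.3 CPM, against 4819.5, 5893, 6471 and 5194 CPM in the upper horn. Heifers 10872, 10882 and 11033 stood far above heifers 11070 and 11110 in the ampulla. HSP90B1, the chaperone GRP94, had 10182, 10096, 18179, 2683 and 1896 CPM in the ampulla, against 1006, 1828, 1299 and 1233 CPM in the upper horn (2.7 ± 0.43, adjusted p 0.00186). SDF2L1, a partner of BiP, had 996, 590.3, 1106, 117 and 159 CPM in the ampulla, against 14.7, 11.4, 26.7 and 14.3 CPM in the upper horn (5.11 ± 0.56, adjusted p 0.000429). CRELD2, a stress-induced folding factor, showed the same order with 480.5, 322, 632, 88.8 and 130.4 CPM in the ampulla, against 37, 40.2, 56.2 and 49.9 CPM in the upper horn (2.81 ± 0.49, adjusted p 0.00371). AGR3, a disulfide isomerase of ciliated airway cells, had 29.7, 53.7, 52.1, 29.6 and 51.1 CPM in the ampulla, against 0.0305, 0.0424, 0.157 and 0.525 CPM in the upper horn (8.01 ± 0.61, adjusted p 2.95e-05, and 9.19 without heifer 11070), and did not share that order. CREB3L1, a stress sensor, averaged 122 ± 35.5 CPM in the ampulla and 177 ± 45.3 CPM in the upper horn and was not called (-0.49 ± 0.24, adjusted p 0.134, and 0.0142 with no filter on low counts). With no filter on low counts, the calls of HSP90B1 and CRELD2 were lost (adjusted p 0.0997 and 0.115).

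Antioxidant enzymes went both ways, with 9 of 18 tested higher and 5 lower (median 0.50, with 3 lower without heifer 10882 or 11033). GPX2, an epithelial glutathione peroxidase, had 298, 295, 202, 146 and 495 CPM in the ampulla, against 2.96, 1.06, 2.56 and 5.51 CPM in the upper horn (6.4 ± 0.56, adjusted p 0.000158). HMOX1, which degrades haem, averaged 17.8 ± 8.71 CPM in the ampulla and 138 ± 75.3 CPM in the upper horn (-3.17 ± 0.22), and GPX7, a peroxidase of the endoplasmic reticulum, 11.5 ± 2.82 CPM in the ampulla and 80.1 ± 7.49 CPM in the upper horn (-2.87 ± 0.20). Proteins that bind sperm or handle the egg were split, 6 higher and 7 lower of 17. Their median of 0.24 turned to -0.35 with DESeq2's test and to -0.40 with no filter on low counts. ANXA4, an annexin that binds bovine sperm, had 1158, 2052, 2265, 1140.2 and 836 CPM in the ampulla, against 396, 319, 338 and 228 CPM in the upper horn (2.33 ± 0.21, adjusted p 6.57e-05). ITGA5, an integrin that pairs to bind fibronectin, averaged 0.188 ± 0.121 CPM in the ampulla and 9.73 ± 3.12 CPM in the upper horn (-5.76 ± 0.55).

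Complement and antimicrobial genes gave 4 higher and 5 lower of 10 tested (median -0.33, with 7 higher of 18 with no filter on low counts). C3, the central complement protein, had 2985, 2778, 2006, 3879 and 1987 CPM in the ampulla, against 159, 178, 118 and 128 CPM in the upper horn (4.3 ± 0.22, adjusted p 3.96e-06). C1S, a protease of the classical pathway, had 8.28, 8.72, 9.74, 18 and 6.43 CPM in the ampulla, against 1008, 1289, 565 and 881 CPM in the upper horn (-6.39 ± 0.35, adjusted p 5.84e-06). C1S and C3 thus moved in opposite directions. CD14, the lipopolysaccharide coreceptor, averaged 4.11 ± 1.57 CPM in the ampulla and 52.4 ± 10.7 CPM in the upper horn (-3.89 ± 0.31), and the protease inhibitor SLPI 1.46 ± 0.831 CPM in the ampulla and 0.0466 ± 0.0376 CPM in the upper horn (4.41 ± 0.62, adjusted p 0.000621, and 5.1 in a fit of all 34 libraries). PIGR, which carries IgA across epithelium, averaged 48.5 ± 37.7 CPM in the ampulla and 35.3 ± 8.93 CPM in the upper horn and was not called (adjusted p 0.0648, and 0.0401 without heifer 11033 and 0.0254 with no filter on low counts). Of 15 interferon-stimulated genes, 5 rose and 1 fell (median 0.22, with 3 higher without the heifer block). IFI44 averaged 36.5 ± 22.9 CPM in the ampulla and 12 ± 5.05 CPM in the upper horn (1.67 ± 0.18). ISG15, a ubiquitin-like modifier, had 124, 173, 103, 9.94 and 64.8 CPM in the ampulla, against 20.5, 89.3, 27 and 18.5 CPM in the upper horn, and was not called (adjusted p 0.134, but 0.00385 without heifer 11070, 0.00853 in a fit of all 34 libraries and 0.0371 with DESeq2).

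The retinoid list, which holds RARRES1, gave 3 higher and 5 lower of 11 tested, against 22.9% and 23.2% of all transcripts (median -0.31). ALDH1A2, which makes retinoic acid and also marks mesothelium, had 708, 862, 835, 693 and 648 CPM in the ampulla, against 93.3, 27.4, 88.3 and 84.9 CPM in the upper horn (3.52 ± 0.35, adjusted p 0.000143). ALDH1A1, another such enzyme, averaged 888 ± 151 CPM in the ampulla and 161 ± 61.6 CPM in the upper horn (2.59 ± 0.20, adjusted p 2.73e-05). CRABP1, which binds retinoic acid, averaged 117 ± 56 CPM in the ampulla and 30.1 ± 20.7 CPM in the upper horn and was not called (adjusted p 0.0537, but 0.00169 without heifer 11070, 0.014 without the heifer block, 0.00101 in a fit of all 34 libraries and 4.12e-05 with DESeq2). Cholesterol and steroid genes fell in 6 of 14 cases, with 3 higher, against 23.2% lower and 22.9% higher over all transcripts (median -0.46). The number higher was 0 without the heifer block, 0 in a fit of all 34 libraries, where 3 were lower, and 1 without heifer 10882 or 11033. APOE, a lipid carrier, averaged 0.275 ± 0.196 CPM in the ampulla and 8.1 ± 2.22 CPM in the upper horn (-5.23 ± 0.51). APOA1, the main protein of HDL, had 9.55, 12.4, 29.1, 10.2 and 1018 CPM in the ampulla, against 102, 122, 165 and 142 CPM in the upper horn. In the 4 pairs it fell by 3.25 ± 0.22, adjusted p 1.36e-05, but with the ampulla of heifer 11110 added and no heifer block the value was 0.69, and in a fit of all 34 libraries it was -1.79 and not called (adjusted p 0.219).

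Proliferation genes fell in 6 of 10 tested cases and rose in 1 (median -0.92). CCNB1, the mitotic cyclin B1, had 7.16, 5.26, 6.93, 6.43 and 2.06 CPM in the ampulla, against 100.5, 65.6, 138 and 81.4 CPM in the upper horn (-3.85 ± 0.19, adjusted p 3.27e-06). CCNA2, cyclin A2, averaged 4.84 ± 0.851 CPM in the ampulla and 16 ± 8.63 CPM in the upper horn (-1.68 ± 0.30), and MCM6, of the replication helicase, 38.2 ± 5.91 CPM in the ampulla and 97 ± 18.3 CPM in the upper horn (-1.27 ± 0.15). Of 18 immediate early genes tested, 8 were called lower and 0 higher (median -1.12). IER3, an early response gene, had 32.4, 42, 36, 212 and 47.8 CPM in the ampulla, against 177, 459, 123 and 435 CPM in the upper horn (-2.17 ± 0.39, adjusted p 0.00336), and KLF2, a flow-responsive factor, averaged 42.9 ± 13.8 CPM in the ampulla and 151 ± 73.7 CPM in the upper horn (-1.77 ± 0.32). JUN, a part of the AP-1 complex, had 426, 447, 649, 3652 and 820.3 CPM in the ampulla, against 1010.1, 2118, 766 and 2026 CPM in the upper horn, and was not called (adjusted p 0.29, but 0.0256 without heifer 11070). The ampulla of heifer 11070 was the highest of its group in both IER3 and JUN.

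Nuclear genes of oxidative phosphorylation and ribosomal protein genes were called less often than all transcripts (46.1%). Of 16 nuclear genes of oxidative phosphorylation 3 rose and 1 fell (median 0.20), with COX7A2 of complex IV at 0.70 ± 0.14 and NDUFB7 of complex I at 0.80 ± 0.20. Of 24 ribosomal protein genes 4 rose and 0 fell (median 0.25). The number higher was 0 without heifer 10872, 0 without 10882, 1 without 11033 and 9 without 11070, and 7 both in a fit of all 34 libraries and with no filter on low counts. RPLP1, which rose most of these, gave 0.78 ± 0.20, adjusted p 0.0136, and its call was lost without heifer 10872 or 10882 (adjusted p 0.0634 and 0.0591). Grouped by the first letters of the symbol instead, 2 of 35 RPL transcripts rose and 2 fell (median 0.07). Of 30 RPS transcripts 1 rose and 2 fell (median 0.14). The counts thus depend on which members are taken, and such groups may hold other genes too.

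Lists for cells that a sample could hold by contact with neighbouring tissue were read as well. Of 5 mesothelial genes, MSLN, ALDH1A2 and KRT19 rose and 0 fell, all 3 also known from epithelium. KRT19, a keratin of simple epithelium, averaged 785 ± 170.1 CPM in the ampulla and 336 ± 74.1 CPM in the upper horn (1.19 ± 0.22, adjusted p 0.00269). Cumulus, granulosa and luteal genes fell in 6 of 9 tested cases and rose in 2. Summed over the list, levels were 121 to 248 CPM in the ampulla libraries and 474 to 1240.3 CPM in the upper horn libraries. STAR, which brings cholesterol into mitochondria for steroid synthesis, had 4.51, 5.46, 4.74, 4.51 and 11.8 CPM in the ampulla, against 17.9, 39.2, 14.6 and 10.2 CPM in the upper horn (-1.91 ± 0.31, adjusted p 0.00138), and HSD17B1 averaged 0.878 ± 0.485 CPM in the ampulla and 6.53 ± 1.25 CPM in the upper horn (-3.08 ± 0.51). Nerve and Schwann cell genes gave 1 higher and 2 lower of 5 tested. SOX10, a factor of glia, averaged 0.425 ± 0.173 CPM in the ampulla and 15.9 ± 4.96 CPM in the upper horn (-5.06 ± 0.31), while S100B, a calcium-binding protein known from glia, had 1939, 2148, 2425, 1527 and 2806 CPM in the ampulla, against 68.4, 69.6, 69.8 and 108 CPM in the upper horn (4.68 ± 0.24, adjusted p 3.96e-06). Members of this list thus went both ways.

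The same step was then read on the opposite side, in the 5 heifers' contralateral ampulla and upper horn, which are other libraries of the same animals. There 11606 transcripts were tested, with 1428 calls above and 1485 below the upper horn (25.1%). On that side the upper horn of heifer 10882 had 19.6% of its counts on the 18S transcript and 58.2% in its top 10 features, and the ampulla of heifer 11110 had 11.1% on the 18S transcript. Without these 2 heifers, 3 pairs gave 333 calls above and 560 below of 12014 tested. Without heifers 11033 and 11070, 2 of whose libraries on that side held few features, 3 pairs gave 1503 and 1610. Of 11253 transcripts tested on both sides, 1293 were called higher and 1410 lower on both, and 0 in opposite directions. Without heifers 10882 and 11110 these numbers were 330, 550 and 0 of 11384. With all 5 pairs, the shared calls make 50.4% of the ovulatory-side calls and 94.9% of the opposite-side calls among transcripts tested on both. The sign was shared by 98.4% of the ovulatory-side calls, against 84.5% of all transcripts. On the opposite side KRT5 had a log2 fold change of 9.78, RARRES1 5.02, COL1A2 -8.54, C3 3.31 and HOXB6 -3.35, beside 10.05, 5.21, -8.38, 4.3 and -3.02 on the ovulatory side. Other values, picked after they were seen, lay further apart. GRP stood at -11.07 and HSP90B1 at 1.57 on the opposite side, beside -8.74 and 2.7. List medians there were 0.948 for chaperones, 1.015 for ribosomal proteins and 0.165 for aquaporins and ion transport, beside 1.825, 0.249 and 0.992.

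A test of the difference between the sides, over all 34 libraries in edgeR, called 0 of 17241 transcripts (0%). At an unadjusted p under 0.05 there were 724 (4.20%), and the median standard error of the difference was 0.75 on the log2 scale. With no filter on low counts the test called 13 transcripts higher and 27 lower, SPON2, TIMP2 and ERRFI1 among them. Without the 2 libraries high in 18S it called 0 of 17189 (smallest adjusted p 0.631). The smaller number of calls on the opposite side on its own does not show a smaller step. The smallest p belonged to SPON2, a matrix spondin that also acts in innate immunity. SPON2 averaged 205 ± 146 CPM in the ampulla and 779.6 ± 68.6 CPM in the upper horn on the ovulatory side, and 34.7 ± 20.6 CPM in the ampulla and 941 ± 430.3 CPM in the upper horn of the opposite side. Its difference between the sides was 2.87 ± 0.55 (adjusted p 0.179). TIMP2 followed at 1.9 ± 0.43 (adjusted p 0.604), with 1034 ± 657 CPM in the ampulla and 718 ± 222 CPM in the upper horn of the opposite side. ERRFI1, a feedback inhibitor of the EGF receptor, gave -1.73 ± 0.40 (adjusted p 0.604), with 28.9 ± 4.22 CPM in the ampulla and 225 ± 165 CPM in the upper horn on the ovulatory side.

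**Figure D4:**
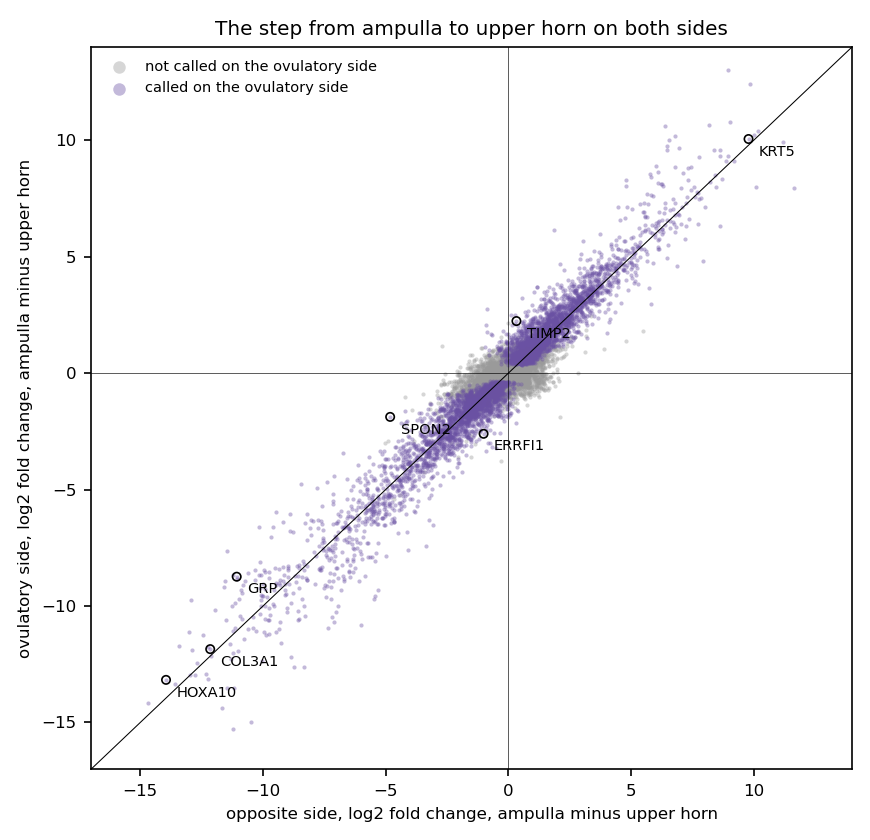
Log2 fold change, ampulla minus upper horn, on the ovulatory side (vertical axis, 4 pairs) against that on the opposite side (horizontal axis, 5 pairs) for transcripts tested on both. Purple points were called on the ovulatory side, and the line marks equal values. Of the transcripts called on the ovulatory side, 98.4% had the same sign on the opposite side, and SPON2, TIMP2 and ERRFI1, which lie off the line, did not pass the test of the difference with the low-count filter.

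Values further down the tract were set beside these, without a test. HOXA10 averaged 0.0102 ± 0.0228 CPM in the ampulla and 164 ± 55.5 CPM in the upper horn, beside 153 ± 48.6 CPM in the mid horn and 99.8 ± 29.8 CPM in the uterine body. GRP stood at 4859 ± 2912 CPM in the mid horn and 3861 ± 4824 CPM in the uterine body, AQP1 at 440.3 ± 205 CPM in the mid horn and 493 ± 283 CPM in the uterine body and OXTR at 137 ± 77.8 CPM in the mid horn and 89.6 ± 109 CPM in the uterine body. Of genes higher in the ampulla, DNAAF1 stood at 33.4 ± 17.2 CPM in the mid horn and 25.8 ± 11 CPM in the uterine body, SLC5A1 at 1.36 ± 1.4 CPM in the mid horn and 0.947 ± 0.33 CPM in the uterine body and GPX2 at 6.82 ± 5.75 CPM in the mid horn and 4.04 ± 3.01 CPM in the uterine body.

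**Figure D5:**
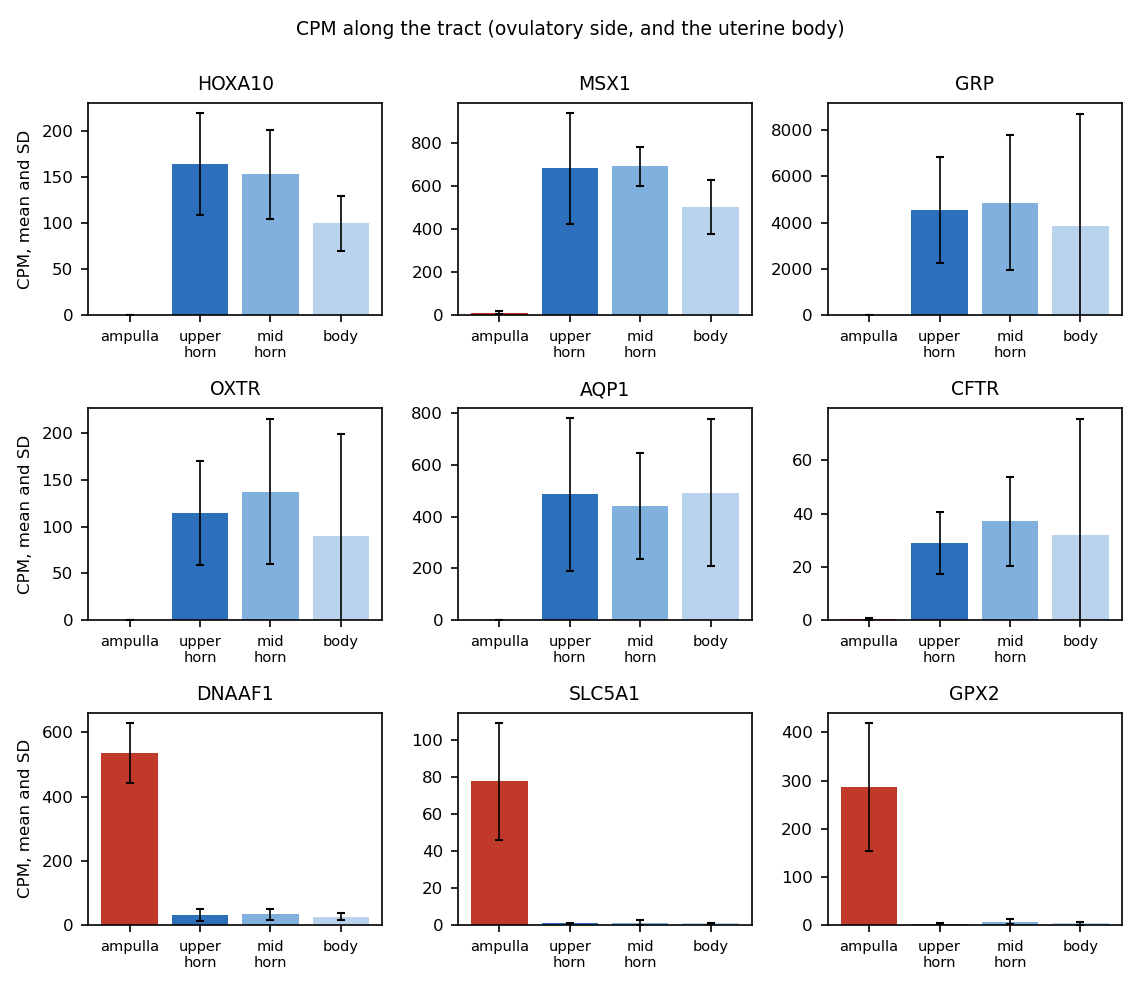
CPM (bars, mean; whiskers, SD) of 9 transcripts in the ampulla (n = 5), upper horn (n = 4) and mid horn (n = 5) of the ovulatory side and in the uterine body (n = 5). For each, the ampulla mean lies far from the upper horn mean, and the means of the mid horn and body lie on the upper horn's side of the ampulla.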

How the data were processed

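RNA-seq of bovine endosalpinx and endometrium was read from raw counts per transcript, which the authors deposited as one table of 34 libraries. Per the labels' protocols, RNA was column-purified and libraries were made with a strand-specific kit. The submitters' processing notes name cutadapt, STAR 2.7.9a, HTSeq and SAMtools; the role of each, the genome build and the strand setting were not given in the sources used here. Without these, reads of overlapping genes or near-identical copies may be split or shared. Counts were used as deposited. RefSeq's ARS-UCD2.0 table named 26092 of 38568 features, holding 95.3% of counts, and for a gene with several features the one with the highest mean count was used.

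Differences were tested in R 4.3.3 with edgeR 4.0.16 (TMM scaling, edgeR's low-count filter, robust quasi-likelihood F test, Benjamini-Hochberg adjustment at 0.05), with a term for the heifer, since libraries with the same number came from the same animal. Deviations from group means correlated between the sites at 0.150 to 0.345 in the 4 pairs. The difference between sides used all 34 libraries with group and heifer as terms. The scripts were tested on simulated data. Tried as alternatives were DESeq2 1.42.0, other scalings, no filter, sums per gene, other sets of libraries and leaving out each heifer. Named were the 8 highest and 8 lowest fold changes of called transcripts. These had an official symbol, at least 10 CPM in the higher group and the same direction in all 4 pairs. Up to 4 called and 2 uncalled members of each of 39 gene lists were named too. So were the 5 most abundant transcripts of each group and up to 8 with the smallest p between sides. Only some of those are described. The comparison, lists and genes were chosen with earlier results of these data known. No sequences were used.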

Additional observations from a re-analysis of the deposited data

Results flagged for a closer look

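In each group the highest or lowest library of every named gene was set against the rest, and the values below stood apart by more than Dixon's 95% critical value. Chance gives about 1 such value in 20 groups, and values of 1 count against 0 counts meet this test by themselves.

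In heifer 10872 the ampulla was high in HOXD11 (0.0530 CPM, nearest other 0) and SFRP2 (1.22 CPM, nearest other 0.354). For heifer 10882, ampulla values were high in HOXD10 (0.0501 CPM, nearest other 0) and IGFBP1 (0.0501 CPM, nearest other 0). Heifer 11033 had an ampulla that was high in HOXA10 (0.0510 CPM, nearest other 0), OXTR (0.306 CPM, nearest other 0.0590) and GDF7 (0.0510 CPM, nearest other 0). In heifer 11033 the ampulla was low in GDF3 (5.46 CPM, nearest other 6.81). For heifer 11070, ampulla values were high in MEG3 (0.0418 CPM, nearest other 0), TCF21 (0.0418 CPM, nearest other 0), CCN2 (30.8 CPM, nearest other 1.83), CCN1 (394 CPM, nearest other 32.0), PTGS2 (2.67 CPM, nearest other 0.663), C1S (18 CPM, nearest other 9.74), ESAM (0.251 CPM, nearest other 0.0590), IER3 (212 CPM, nearest other 47.8) and JUN (3652 CPM, nearest other 820.3). Heifer 11110 had an ampulla that was high in HOXA7 (2.71 CPM, nearest other 0.918), HPGD (27.2 CPM, nearest other 8.06), APOA1 (1018 CPM, nearest other 29.1) and STAR (11.8 CPM, nearest other 5.46). In heifer 11110 the ampulla was low in NOTCH3 (106 CPM, nearest other 251).

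For heifer 10872, upper horn values were high in NOG (7.6 CPM, nearest other 4.28). Heifer 10872 had an upper horn that was low in GJB1 (0.733 CPM, nearest other 3.15). In heifer 10882 the upper horn was high in P2RX2 (0.0424 CPM, nearest other 0), SLC1A1 (226 CPM, nearest other 207), ISG15 (89.3 CPM, nearest other 27.0) and JCHAIN (1265 CPM, nearest other 69.4). For heifer 10882, upper horn values were low in ALDH1A2 (27.4 CPM, nearest other 84.9). Heifer 11033 had an upper horn that was high in MSX1 (1066 CPM, nearest other 591), SOX17 (418 CPM, nearest other 315) and CCNA2 (28.9 CPM, nearest other 12). In heifer 11033 the upper horn was low in COL3A1 (21802 CPM, nearest other 35864). For heifer 11070, upper horn values were high in AQP9 (0.0656 CPM, nearest other 0), SPRY4 (0.0656 CPM, nearest other 0), FOXA1 (0.131 CPM, nearest other 0) and S100B (108 CPM, nearest other 69.8). Heifer 11070 had an upper horn that was low in PTGES (20.2 CPM, nearest other 42.2).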

How the results depend on the processing

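Counts of calls between ampulla and upper horn stayed within 1.5 times under all 11 alternatives, from 2486 to 3459 higher and from 2453 to 4004 lower. The number tested differed, from 12477 with counts summed per gene to 33186 with no filter. With no filter the 3459 and 4004 calls, and with DESeq2 3450 and 3631 of 20961, were smaller shares than the 46.1% called above. Without the heifer block and with the ampulla of heifer 11110 added, the counts of calls were 2688 and 2605. Leaving out 1 heifer gave 2486 to 2709 and 2453 to 2902. Of 137 called genes named here, 9 lost their call under at least 1 alternative and 1, APOA1, changed sign (0.69 without the block). Dropping the heifer block and adding the ampulla of heifer 11110 changed no call named here other than those of APOA1, CCNO and CRABP1. CCNO was called in that fit (adjusted p 0.0238). The part of the block alone was not tested. The difference between sides had 0 calls in edgeR under 10 alternatives but 13 higher and 27 lower with no filter on low counts, SPON2, TIMP2, ERRFI1 and SOCS3 among them; the cause was not tested. List medians changed sign for cell junctions (0.54 with DESeq2), anterior HOX genes (-0.29 to 0.16 with 1 heifer left out) and sperm-binding proteins (-0.35 with DESeq2, -0.40 with no filter), and that of collagens was -4.79 with no filter, where more members are tested. On the opposite side, leaving out heifers 11033 and 11070 gave 1503 higher and 1610 lower calls, and leaving out 10882 and 11110 gave 333 and 560; these 2 settings, and the test between sides without the 2 libraries high in 18S, were chosen after seeing the data, and the cause of the lower counts was not tested. With 4 pairs, small changes may be missed, and a gene near 0 counts in a group has a poorly known fold change.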

Other observations

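Grouping transcripts by the first letters of their symbol, a step made after the values were seen and without a test, showed other families. Of 17 CFAP genes, which encode proteins of cilia and flagella, 14 rose and 0 fell in the ampulla (median log2 fold change 2.75). Of 17 SEC genes, many of which act in protein export, 10 rose and 0 fell (median 0.60). Of 49 CCDC genes, named for a coiled coil, 22 rose and 6 fell, and of 19 TTC genes 9 rose and 1 fell. Of 38 genes with CD numbers, mostly surface proteins of blood cells and vessels, 4 rose and 23 fell (median -1.72). Of 22 IL genes, interleukins and their receptors, 3 rose and 10 fell. Over all transcripts, 22.9% rose and 23.2% fell.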
